A study of Mus musculus with 19 samples.

Results

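Chemokine ligands are small secreted proteins, here taken as 37 genes of the CC, CXC, C and CX3C families chosen by gene symbol, out of 46983 genes counted by RNA sequencing of implanted mouse tumours. All 37 had counts in at least 1 sample, and 30 passed the filter on low counts and were tested among 16763 genes. The tumours were grown in BALB/cAnN mice from 1000000 implanted cells of 4T1, a line derived from a mouse mammary carcinoma. The series asks what blocking CTLA-4, which restrains T cell activation, does to transcripts in tumours with normal and with lowered LDHA. LDHA, lactate dehydrogenase A, makes lactate from pyruvate at the end of glycolysis. Control tumours, from cells labelled 4T1-Sc, were given IgG (n = 4, replicates 1, 3, 4 and 5) or anti-CTLA-4 (n = 5). LDHA-KD tumours, from cells labelled 4T1-KD, were given IgG (n = 5) or anti-CTLA-4 (n = 5). Both antibodies were given in 3 doses, 3 days apart, from day 3 after implantation. The labels place the knockdown in the implanted cells and name no change to the host, so Ldha reads can also come from host cells. The sources used here do not give how the knockdown was made, whether the line is 1 clone, or the age of the mice. No label says that each sample came from a separate mouse. The p-values therefore set group differences only against the spread among these samples, which may be technical in part.

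Chemokines bind G protein-coupled receptors on leukocytes and set where those cells move and stay. Inflammatory chemokines are induced in macrophages, stromal cells and tumour cells, often through NF-κB or interferon signalling, while homeostatic chemokines are made more steadily and organise lymphoid tissue and barrier sites. In tumours, different ligands are known for drawing in monocytes, neutrophils, dendritic cells, regulatory T cells or cytotoxic lymphocytes, so that a shift in the ligand mixture can accompany a shift in the cells present.

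Each library held 31.8 to 43.3 gene counts, in units of 1000000, and 3 counts in a library, used as the floor of detection, correspond to 0.0698 to 0.0926 CPM, the counts of a gene for each 1000000 scaled counts. Ldha itself ran from 1283 to 2244 CPM in the 9 control tumours and from 452 to 584 CPM in the 10 LDHA-KD tumours, with no overlap. Its log2 fold change was -1.72 ± 0.11 (SE) under IgG and -1.82 ± 0.11 under anti-CTLA-4 (adjusted p = 2.46e-09 and 6.23e-10, edgeR's quasi-likelihood test with Benjamini-Hochberg adjustment over all genes tested). Markers of carcinoma epithelium were present in every sample, at 2042 to 4397 CPM summed over 5 genes. On the second principal component of all tested genes, anti-CTLA-4 replicates 3 and 5 of both tumour types stood apart from the other 15 libraries. Where a treatment value reached an unadjusted p under 0.05, or a call between tumour types under anti-CTLA-4 was lost without these 4 libraries, the value without them is given beside it. The 4 libraries were picked from these same counts, and leaving them out makes both anti-CTLA-4 groups smaller and removes no IgG sample. A treatment value that shrinks without them is therefore a description and does not test that value.

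Per kilobase of exon, the scale on which levels of different genes can be compared, Ccl8 was the most abundant ligand in all 4 groups. Ccl8 is a chemokine of the monocyte chemotactic protein group that in mice signals through CCR8. Its level was 951 ± 330.1 CPM per kilobase (mean ± SD) in control tumours given IgG, 1913 ± 444 in those given anti-CTLA-4, 1373 ± 471 in LDHA-KD tumours given IgG and 2200.2 ± 652 in those given anti-CTLA-4. In every group its lowest sample lay above the highest sample of the second ligand, Ccl6, a CCR1 ligand of rodents, which was at 149 ± 42.01, 205 ± 34.9, 287 ± 47.7 and 328 ± 42.7 CPM per kilobase in the same order. Ccl12, Ccl7 and Pf4 shared ranks 3 to 5 in every group. In LDHA-KD tumours with IgG, Ccl12 lay clear of Ccl6 above it and of Pf4 below it, and in the other groups these 3 overlapped with one another. Of the 36 pairs of neighbours in the order of all 37 ligands, 32 to 34 overlapped in each group, so most neighbouring ranks did not differ beyond the spread of their samples. Xcl1 stood at 1.01 ± 0.275 and 0.987 ± 0.296 CPM per kilobase in control tumours and at 4.52 ± 0.632 and 4.15 ± 1.64 in LDHA-KD tumours. By mean CPM per kilobase, Ccl25 and Ccl1 were lower than Xcl1 in every group, although Xcl1 and Ccl25 samples overlapped in both control groups. The order of Xcl1 and Ccl25 depends on the exon lengths used, 523 and 7445 bases. By mean CPM without division by length, Ccl25 was above Xcl1 in every group.

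The 7 ligands that did not pass the filter are known mainly from lymphoid tissue and epithelia. Ccl21a reached at most 0.490 CPM in any sample, Cxcl15 0.422, Ccl28 0.257, Ccl27a 0.196, Cxcl17 0.175, Ccl20 0.130 and Ccl19 0.0735. Each was at 0 in 2 to 7 of the 19 libraries, and none was tested. Ccl21a and Ccl27a also have near-identical gene copies between which reads can be split, so their values are uncertain. Summed over all 37 genes, chemokine ligands took 1677 ± 288 CPM in control tumours given IgG (n = 4) and 2561 ± 486 in those given anti-CTLA-4 (n = 5), and 2409.6 ± 339 and 3308 ± 814 in the LDHA-KD tumours (n = 5 each). Ccl8 made up 28.4% ± 5.26 of that sum in control tumours with IgG and 38.0% ± 3.72 with anti-CTLA-4, and 28.5% ± 5.74 and 33.7% ± 3.94 in LDHA-KD tumours.

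**Figure D1:**
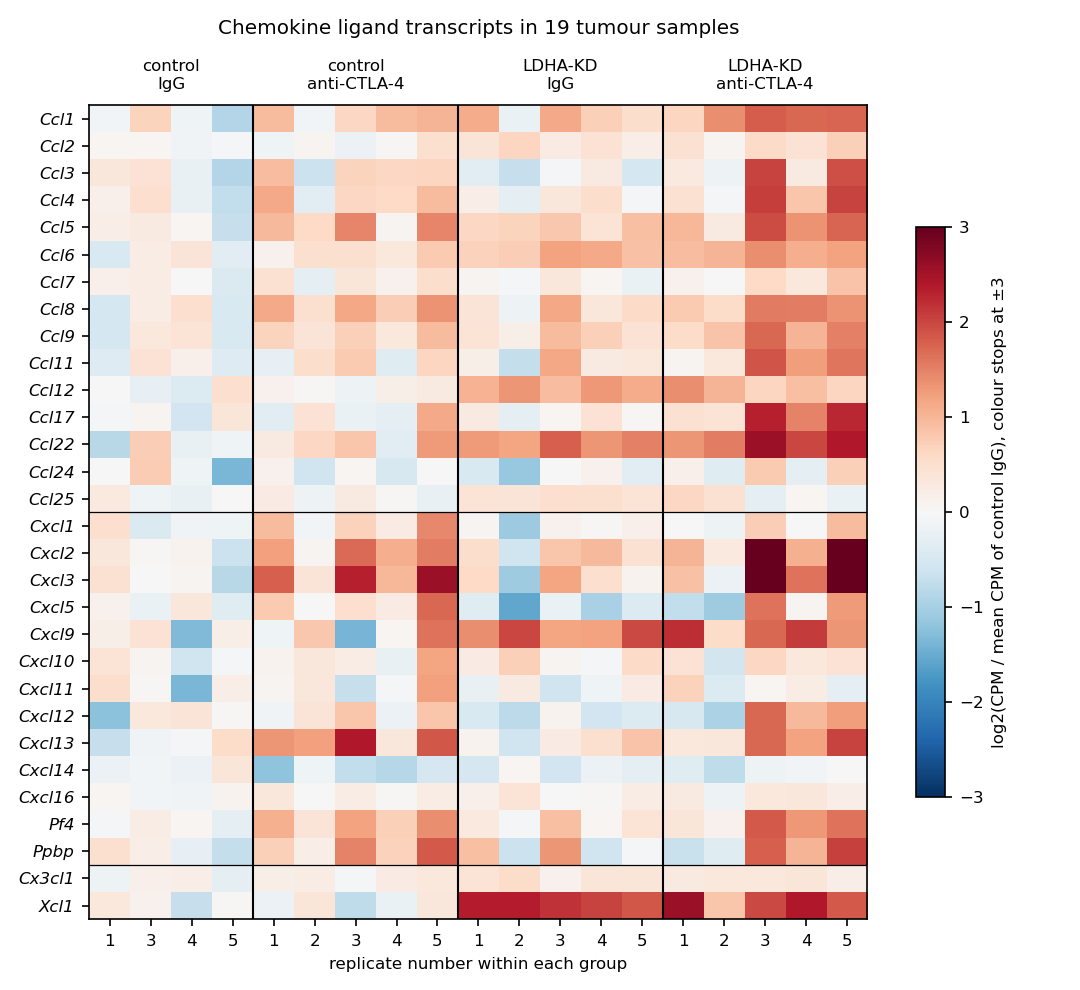
Each cell shows the log2 ratio of a sample's CPM to the mean CPM of control tumours with IgG, for the 30 tested chemokine ligands (rows, grouped as CC, CXC and the CX3C and C families) and the 19 samples (columns, by replicate number in each group). Xcl1, Ccl12 and Ccl22 are red across the LDHA-KD samples, and Cxcl2 and Cxcl3 are darkest in LDHA-KD anti-CTLA-4 replicates 3 and 5, where colour is capped at 3.

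The genes lie largely in clusters, given here on GRCm38 with GENCODE M21 gene models. Ccl2, Ccl7, Ccl11, Ccl12, Ccl8 and Ccl1 span chr11:82035571-82305690, and Ccl5, Ccl9, Ccl6, Ccl3 and Ccl4 span chr11:83525778-83664683. Cxcl5, Ppbp, Pf4, Cxcl3, Cxcl15, Cxcl1 and Cxcl2 lie within chr5:90759360-90905938, a stretch of 146.6 kb, and Cxcl9, Cxcl10 and Cxcl11 within chr5:92321347-92365485. Ccl22, Cx3cl1 and Ccl17 lie in 66.4 kb at chr8:94745590-94812036, and Xcl1 lies alone at chr1:164931644-164935527. Of the members named with results, Xcl1 shares 98 bases of exon with a gene on the opposite strand, Cxcl10 133 and Ccl25 204. Cxcl16 shares 552 bases and Cxcl11, annotated as a polymorphic pseudogene, shares 1582 of its 3794. Whether the counting used strand was not given in the sources used here, so reads of these genes cannot be told apart from those of their partners there.

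Setting LDHA-KD against control tumours asks how lowering the enzyme in the implanted cells goes with ligand expression. Under IgG, LDHA-KD tumours had 7 of the 30 tested ligands higher and 0 lower (adjusted p under 0.05 in edgeR's quasi-likelihood test), against 16.8% of all tested genes higher and 17.5% lower. At an unadjusted p under 0.05, 11 were higher and 0 lower, against 21.6% and 22.3%. No ligand was called lower by DESeq2 or limma voom either. Under anti-CTLA-4, 9 of 30 were higher and 0 were lower, against 20.2% and 19.8% of all tested genes. There 12 were higher and 0 lower at an unadjusted p under 0.05, against 24.5% and 24.4%, and DESeq2 and limma voom called 0 lower. By direction alone, 23 of 30 ligands were higher in the LDHA-KD samples under IgG and 25 were under anti-CTLA-4, against 49.9% and 50.6% of all tested genes. The median log2 fold change of the 30 was 0.37 under IgG and 0.40 under anti-CTLA-4, beside 0.00 and 0.01 over all tested genes. Xcl1, Ccl12, Ccl22, Ccl6, Cxcl9 and Ccl2 were called in both comparisons, which is 85.7% of the calls under IgG and 66.7% of those under anti-CTLA-4. In a homogenised tumour, fewer cells of a type and less RNA per cell cannot be told apart.

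Markers of several immune cell types, like the ligands called, were higher in LDHA-KD tumours, and the part of these cells in the ligand values was not tested. T cell markers were higher for 8 of 8 in both comparisons, with summed levels of 10.1 to 25.5 CPM in control and 46.9 to 75.99 CPM in LDHA-KD tumours under IgG, and of 23.9 to 46.4 and 63.2 to 123 CPM under anti-CTLA-4. Natural killer cell markers, a list without Xcl1, were higher for 5 of 5 in both, at 2.57 to 6.41 and 11.95 to 21.9 CPM under IgG and 3.67 to 7.09 and 7.94 to 20.02 CPM under anti-CTLA-4. Macrophage markers were higher for 6 of 7 under IgG and 7 of 7 under anti-CTLA-4, at 1300.2 to 2287 and 3218 to 3639 CPM and at 1559 to 2017 and 3311 to 3769 CPM. Mast cell markers were higher for 6 of 6 in both, at 92.6 to 135 and 382 to 757 CPM and at 90.7 to 150.3 and 309 to 618 CPM. None of the markers in these 4 lists was at 0 in any library. Of all tested genes, 16.8% were higher and 17.5% lower under IgG, and 20.2% and 19.8% under anti-CTLA-4. Of 7 dendritic cell markers, 5 were higher and 2 lower in both, with a median log2 fold change of 1.37 under IgG and 0.96 under anti-CTLA-4. Their sums, which weigh the abundant markers most, overlapped, at 129 to 189.7 and 138 to 161 CPM and at 145 to 189.6 and 135 to 167 CPM. Xcr1 and Ccr7 among these markers are also counted below with the receptors.

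Xcl1 (ENSMUSG00000026573.7), lymphotactin, is made mainly by natural killer cells and activated CD8 T cells and attracts dendritic cells that bear XCR1. It was at 0.661, 0.580, 0.325 and 0.542 CPM in control tumours given IgG and at 2.68, 2.69, 2.35, 2.16 and 1.93 CPM in LDHA-KD tumours given IgG. Under anti-CTLA-4 it was at 0.470, 0.679, 0.311, 0.456 and 0.664 CPM in control tumours and at 3.16, 0.945, 2.08, 2.77 and 1.89 CPM in LDHA-KD tumours. Every LDHA-KD sample lay above every control sample under both antibodies, and the lowest LDHA-KD sample was anti-CTLA-4 replicate 2, which was also the lowest LDHA-KD sample for the summed natural killer cell markers. The log2 fold change was 2.16 ± 0.31 (SE), 4.47-fold, under IgG (edgeR adjusted p = 2.72e-05) and 2.07 ± 0.28, 4.19-fold, under anti-CTLA-4 (edgeR adjusted p = 1.57e-05). These were the largest log2 fold changes of the 30 ligands in both comparisons.

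Ccl12 (ENSMUSG00000035352.3) and Ccl2 (ENSMUSG00000035385.5) are ligands of CCR2, the receptor of inflammatory monocytes. Ccl12 was at 47.5, 40.3, 36.4 and 68.1 CPM in control and 99.2, 120.0, 91.4, 118 and 105 CPM in LDHA-KD tumours under IgG. With anti-CTLA-4 the values were 52.5, 48.9, 43.3, 54.6 and 58.04 CPM in control and 126, 97.3, 74.6, 90.4 and 75.6 CPM in LDHA-KD tumours. The groups did not overlap in either comparison, and the log2 fold change was 1.15 ± 0.17 under IgG (edgeR adjusted p = 4.06e-05) and 0.85 ± 0.16 under anti-CTLA-4 (edgeR adjusted p = 0.000312). Ccl2 was at 47.02, 47.04, 41.5 and 44.2 CPM in control and 58.7, 70.6, 53.7, 61.1 and 51.8 CPM in LDHA-KD tumours under IgG. In the anti-CTLA-4 arm it was at 41.2, 47.3, 39.8, 46.2 and 62.9 CPM in control and 62.2, 47.8, 67.2, 60.4 and 73.5 CPM in LDHA-KD tumours. The Ccl2 groups were apart under IgG and overlapped under anti-CTLA-4, where control replicate 5 lay above 3 of the 5 LDHA-KD samples and LDHA-KD replicate 2 lay among the controls. Its log2 fold changes were small, 0.40 ± 0.13 and 0.39 ± 0.12 (edgeR adjusted p = 0.0235 and 0.0158). The call under IgG was lost without control IgG replicate 4 or 5 or LDHA-KD IgG replicate 2, with an edgeR adjusted p of up to 0.0694. Ccl7, the neighbouring CCR2 ligand, was at 64.8 ± 12.1 CPM in control and 67.4 ± 9.14 CPM in LDHA-KD tumours under IgG, with a log2 fold change of 0.06 ± 0.18 that did not pass (edgeR adjusted p = 0.842). Under anti-CTLA-4 Ccl7 was at 77.9 ± 15.7 and 86.4 ± 21.8 CPM, with a log2 fold change of 0.15 ± 0.17.

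Ccl22 (ENSMUSG00000031779.3) and Ccl17 (ENSMUSG00000031780.1) are the ligands of CCR4, a receptor of regulatory and type 2 helper T cells, and are typical products of dendritic cells and macrophages. Ccl22 was at 3.70, 10.97, 5.63 and 6.07 CPM in control and 15.99, 14.9, 22.8, 16.6 and 18.8 CPM in LDHA-KD tumours under IgG. Under anti-CTLA-4 it was at 7.99, 10.2, 11.8, 5.34 and 16.1 CPM in control and 16.5, 18.95, 38.8, 26.5 and 34.6 CPM in LDHA-KD tumours. LDHA-KD samples lay above the control samples of the same antibody, although control anti-CTLA-4 replicate 5 came close to LDHA-KD anti-CTLA-4 replicate 1. The log2 fold changes were 1.44 ± 0.32 and 1.40 ± 0.29 (edgeR adjusted p = 0.00188 and 0.000945). Ccl17 was at 3.33, 3.66, 2.33 and 4.45 CPM in control and 4.16, 2.87, 3.58, 4.66 and 3.51 CPM in LDHA-KD tumours under IgG. With anti-CTLA-4 the values were 2.70, 4.66, 3.01, 2.82 and 7.54 CPM in control and 4.72, 4.59, 17.3, 9.68 and 16.6 CPM in LDHA-KD tumours. The groups overlapped in both comparisons, and LDHA-KD anti-CTLA-4 replicates 3 and 5 were highest, followed by replicate 4. Ccl17 was called under anti-CTLA-4, at a log2 fold change of 1.35 ± 0.36 (edgeR adjusted p = 0.00547), and not under IgG, at 0.13 ± 0.39 (edgeR adjusted p = 0.833). The value under anti-CTLA-4 without the 4 libraries that stood apart was 0.90 (edgeR adjusted p = 0.0415).

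Cxcl9 (ENSMUSG00000029417.9), Cxcl10 and Cxcl11 are the interferon-induced ligands of CXCR3, a receptor of activated T and natural killer cells. Cxcl9 was at 38.00, 44.9, 13.3 and 37.6 CPM in control and 87.9, 135, 75.5, 77.8 and 131 CPM in LDHA-KD tumours under IgG. In the anti-CTLA-4 arm it was at 30.4, 58.5, 12.7, 35.1 and 104 CPM in control and 155, 48.8, 110.2, 144 and 84.3 CPM in LDHA-KD tumours. Under IgG the groups were apart, while under anti-CTLA-4 control replicates 2 and 5 reached into the LDHA-KD range. The log2 fold changes were 1.60 ± 0.47 and 1.18 ± 0.43 (edgeR adjusted p = 0.0123 and 0.0352). Leaving out control anti-CTLA-4 replicate 1, 3 or 4 or LDHA-KD anti-CTLA-4 replicate 1, 3 or 4 each ended the call under anti-CTLA-4, with an edgeR adjusted p of up to 0.0839, and so did fitting only the 2 groups compared. Cxcl10 was at 33.3 ± 9.28 and 42.2 ± 9.49 CPM under IgG and at 44.2 ± 18.2 and 41.2 ± 10.8 CPM under anti-CTLA-4, in control and LDHA-KD tumours. Cxcl11 was at 20.9 ± 9.33 and 20.3 ± 4.91 CPM under IgG and at 26.2 ± 13.9 and 22.5 ± 7.17 CPM under anti-CTLA-4. Neither passed the test, with log2 fold changes of 0.34 ± 0.26 and -0.05 ± 0.35 under IgG and -0.10 ± 0.25 and -0.22 ± 0.33 under anti-CTLA-4. The sign of the Cxcl11 value under IgG flipped when libraries were scaled by their totals alone.

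The promoters of Cxcl9 and Cxcl10 are shown because these neighbouring genes share a receptor and a known inducer while 1 of them was called. Each window holds 200 bases, from 250 to 51 bases before the start that RefSeq annotates on GRCm38.p6, and 27 of the 37 ligands had such a window. Windows were searched on both strands for the NF-κB consensus, for an interferon-stimulated response element (ISRE) as GAAANNGAAA and for a gamma-activated site (GAS) as TTCNNNGAA, and overlapping matches of 1 motif count once. Of 32851 windows in the table, 5.71% held an NF-κB match, 2.4% an ISRE match and 5.76% a GAS match. Matches stand in capitals.
Cxcl9, chr5:92328130-92328329, minus strand: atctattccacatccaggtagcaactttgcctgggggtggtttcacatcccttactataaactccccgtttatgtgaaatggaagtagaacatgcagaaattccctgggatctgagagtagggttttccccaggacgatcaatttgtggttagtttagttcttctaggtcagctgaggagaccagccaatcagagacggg
Cxcl10, chr5:92348940-92349139, minus strand: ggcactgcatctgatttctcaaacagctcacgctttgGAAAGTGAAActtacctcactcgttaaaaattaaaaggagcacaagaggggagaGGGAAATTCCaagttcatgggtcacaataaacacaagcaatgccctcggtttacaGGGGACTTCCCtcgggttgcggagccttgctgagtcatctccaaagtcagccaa
The Cxcl10 window held an ISRE match, GAAAGTGAAA, whose first base lies 213 bases before the start, and NF-κB matches 159 and 104 bases before it. The Cxcl9 window held no match to these letters, which says nothing of sites outside it or of weaker letters. For comparison, the Xcl1 window, of the ligand with the largest knockdown difference, held no match either.
Xcl1, chr1:164935573-164935772, minus strand: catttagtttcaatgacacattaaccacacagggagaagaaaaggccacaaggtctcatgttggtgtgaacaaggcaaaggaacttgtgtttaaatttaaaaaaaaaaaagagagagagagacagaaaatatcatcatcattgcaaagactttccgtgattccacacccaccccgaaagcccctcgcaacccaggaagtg
A match is a run of letters and not a measured binding site. Of the other windows, that of Ccl17 held a GAS match 99 bases before its start, Ccl1 and Ccl20 each held an NF-κB match, Ccl19 an ISRE match, and Cxcl14 both an ISRE and a GAS match.

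Ccl6 (ENSMUSG00000018927.3) and Ccl9 (ENSMUSG00000019122.8) are CCR1 ligands of rodents made by myeloid cells. Ccl6 was at 196, 315, 349 and 211 CPM in control and 430.0, 443, 617, 592 and 492 CPM in LDHA-KD tumours under IgG. Under anti-CTLA-4 it was at 294, 375, 374, 334 and 463 CPM in control and 505, 547, 705, 567 and 617 CPM in LDHA-KD tumours. No LDHA-KD sample overlapped with the controls of its antibody, and the log2 fold changes were 0.94 ± 0.17 and 0.68 ± 0.16 (edgeR adjusted p = 0.000299 and 0.00232). Ccl9 was at 84.7, 153, 163 and 89.3 CPM in control and 163, 139, 236, 203 and 166 CPM in LDHA-KD tumours under IgG. With anti-CTLA-4 the values were 195, 161, 199.6, 152 and 235 CPM in control and 181, 220.2, 403, 247 and 352 CPM in LDHA-KD tumours. The groups overlapped in both, and LDHA-KD anti-CTLA-4 replicates 3 and 5 were the highest of all samples. The log2 fold change was 0.57 ± 0.24 under IgG, which did not pass (edgeR adjusted p = 0.0726), and 0.58 ± 0.22 under anti-CTLA-4, which passed narrowly (edgeR adjusted p = 0.0456). DESeq2 called Ccl9 in both comparisons, and limma voom called it under IgG but not under anti-CTLA-4. Leaving out control anti-CTLA-4 replicate 1, 2, 3 or 4, LDHA-KD anti-CTLA-4 replicate 3, 4 or 5, or LDHA-KD IgG replicate 1, 4 or 5 each ended the edgeR call under anti-CTLA-4, with an edgeR adjusted p of up to 0.153. With all 4 libraries that stood apart left out the value under anti-CTLA-4 was 0.35 (edgeR adjusted p = 0.304), and that under IgG passed at 0.57 (edgeR adjusted p = 0.0356).

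Cx3cl1 (ENSMUSG00000031778.12), fractalkine, is a membrane-bound ligand of CX3CR1 on monocytes and macrophages. It was at 104, 127, 132 and 95.7 CPM in control and 153, 169, 125, 147 and 147 CPM in LDHA-KD tumours under IgG. In the anti-CTLA-4 arm it was at 129, 134, 110.4, 136 and 143 CPM in control and 138, 144, 144, 147 and 132 CPM in LDHA-KD tumours. Samples overlapped in both comparisons, by a smaller part of the range under IgG. The log2 fold change was 0.37 ± 0.10 under IgG (edgeR adjusted p = 0.00724) and 0.11 ± 0.09 under anti-CTLA-4, which did not pass (edgeR adjusted p = 0.356). The test of the difference between these values gave -0.26 ± 0.14 (edgeR adjusted p = 0.9998).

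Ccl1 (ENSMUSG00000020702.13), a CCR8 ligand, was scarce. It was at 0.450, 0.754, 0.433 and 0.257 CPM in control and 1.03, 0.410, 1.04, 0.772 and 0.680 CPM in LDHA-KD tumours under IgG. Under anti-CTLA-4 it was at 0.911, 0.445, 0.727, 0.912 and 0.965 CPM in control and 0.744, 1.24, 1.68, 1.57 and 1.60 CPM in LDHA-KD tumours. Control and LDHA-KD samples overlapped under both antibodies. The log2 fold change was 0.72 ± 0.34 under IgG, which did not pass (edgeR adjusted p = 0.105), and 0.79 ± 0.29 under anti-CTLA-4, which did (edgeR adjusted p = 0.0378). Leaving out control anti-CTLA-4 replicate 2 or 3 or LDHA-KD anti-CTLA-4 replicate 3, 4 or 5 each ended it, with an edgeR adjusted p of up to 0.0931, and so did testing without the filter on low counts. With all 4 libraries that stood apart left out it was 0.66 (edgeR adjusted p = 0.248).

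**Figure D2:**
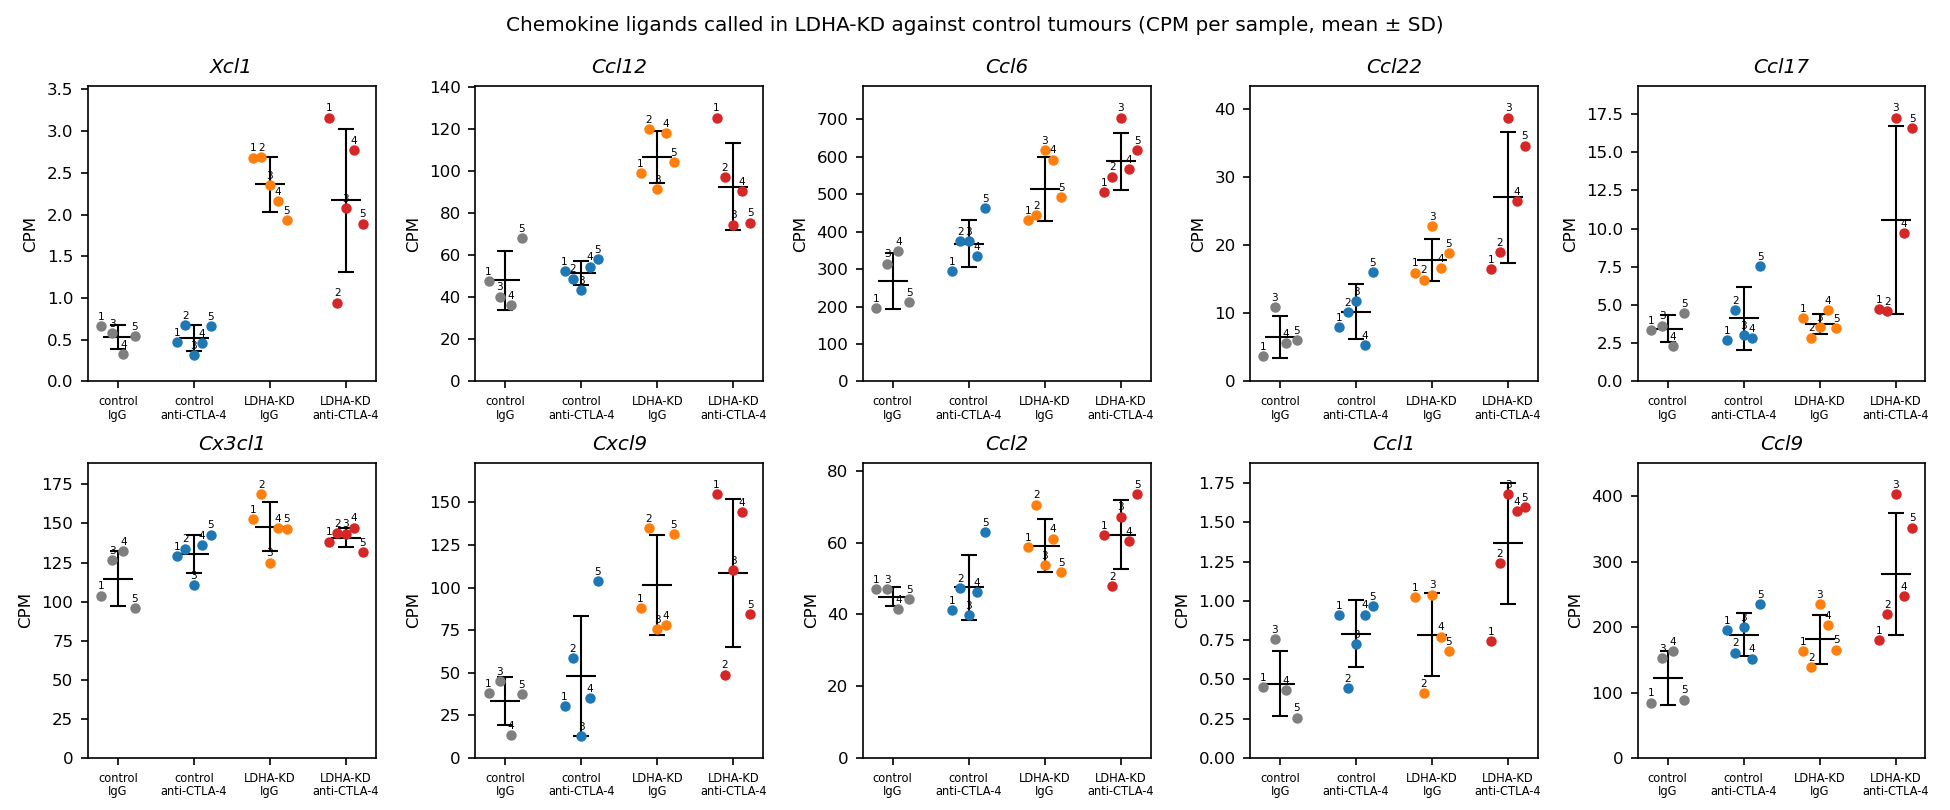
Each point is 1 sample's CPM, labelled with its replicate number, in the 4 groups on the x axis, for the 10 ligands called in at least 1 comparison of LDHA-KD with control tumours, and black bars are mean ± SD. Xcl1, Ccl12, Ccl6 and Ccl22 are higher in every LDHA-KD sample than in the controls of the same antibody, while the Ccl17 difference lies in LDHA-KD anti-CTLA-4 replicates 3, 4 and 5.

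Samples did not overlap for 8 ligands under IgG, all higher in LDHA-KD tumours, against 15.1% of all tested genes higher and 15.2% lower. They were Ccl6, Xcl1, Cxcl9, Ccl22, Ccl12 and Ccl2 with Ccl25 and Ccl5. Ccl25, which attracts thymocytes and gut-homing T cells through CCR9, was at 3.88 ± 0.629 CPM in control and 5.27 ± 0.191 CPM in LDHA-KD tumours, at a log2 fold change of 0.44 ± 0.17 (edgeR adjusted p = 0.0559). Ccl5, a product of T cells and natural killer cells, was at 8.34 ± 2.20 and 13.4 ± 1.71 CPM, at 0.69 ± 0.30 (edgeR adjusted p = 0.0869). Neither passed the threshold in edgeR's test over all 19 samples. Ccl25 did by DESeq2, by limma voom and with scaling by library totals alone, and both ligands did when only the groups compared were fitted or the 4 libraries that stood apart were left out. Under anti-CTLA-4 Ccl25 was at 4.02 ± 0.603 and 4.37 ± 1.23 CPM, Ccl5 at 16.7 ± 6.27 and 21.7 ± 8.83 CPM, and both overlapped. There 4 ligands did not overlap, Ccl6, Xcl1, Ccl22 and Ccl12, all higher, against 11.6% of all tested genes in each direction.

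The neutrophil-attracting ligands of CXCR2 gave no call between LDHA-KD and control tumours. Cxcl5, an epithelial CXCR2 ligand, was at 23.6 ± 5.16 and 15.3 ± 5.12 CPM under IgG and at 40.6 ± 21.7 and 36.2 ± 27.6 CPM under anti-CTLA-4 (mean ± SD, control and then LDHA-KD tumours). Ppbp, the platelet basic protein, was at 1.60 ± 0.557 and 2.12 ± 1.32 CPM under IgG and at 3.45 ± 1.60 and 3.53 ± 2.52 CPM under anti-CTLA-4. The per-sample values of Cxcl2 and Cxcl3 and the means of Cxcl1 follow with the treatment. Under IgG the log2 fold change was -0.07 ± 0.31 for Cxcl1, 0.52 ± 0.52 for Cxcl2, 0.43 ± 0.68 for Cxcl3, -0.62 ± 0.46 for Cxcl5 and 0.40 ± 0.54 for Ppbp. The sign of the Cxcl1 value flipped when libraries were scaled by their totals alone. Under anti-CTLA-4 Cxcl2 stood at 1.11 ± 0.48 (edgeR adjusted p = 0.0740), which turned to -0.05 without the 4 libraries that stood apart (edgeR adjusted p = 0.940). Ccl4, like Ccl3 an early product of activated macrophages and T cells, was at 9.27 ± 3.28 and 10.4 ± 2.31 CPM under IgG and at 14.8 ± 4.91 and 22.95 ± 14.2 CPM under anti-CTLA-4. For Ccl3 and Ccl4 the log2 fold changes were -0.23 ± 0.42 and 0.17 ± 0.38 under IgG and 0.63 ± 0.39 and 0.63 ± 0.35 under anti-CTLA-4, with no call. Ccl8, the most abundant, was not called either, at 0.53 ± 0.27 and 0.20 ± 0.25 (edgeR adjusted p = 0.141 and 0.551).

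Ccl11 and Ccl24 attract eosinophils through CCR3. Ccl11 was at 16.5 ± 4.78 and 21.3 ± 9.85 CPM under IgG and at 21.03 ± 7.13 and 37.8 ± 18.8 CPM under anti-CTLA-4 in control and LDHA-KD tumours. Ccl24 was at 31.1 ± 16.8 and 25.3 ± 7.72 CPM under IgG and at 28.1 ± 6.13 and 37.7 ± 13.7 CPM under anti-CTLA-4. Their log2 fold changes were 0.36 ± 0.37 and -0.30 ± 0.33 under IgG and 0.84 ± 0.35 and 0.43 ± 0.31 under anti-CTLA-4, and neither passed. Ccl11 was nearest under anti-CTLA-4 (edgeR adjusted p = 0.0606) and passed there with scaling by library totals alone. Of the more steadily made ligands, Cxcl12, a stromal ligand of CXCR4, was at 32.04 ± 12.8 and 24.4 ± 6.14 CPM under IgG and at 42.9 ± 14.02 and 56.9 ± 37.4 CPM under anti-CTLA-4. Cxcl16, a membrane-bound ligand of CXCR6, was at 111 ± 7.70 and 124 ± 14.3 CPM under IgG and at 124 ± 11.6 and 128 ± 16.2 CPM under anti-CTLA-4. Between tumour types Cxcl12 had a log2 fold change of -0.39 ± 0.42 under IgG and 0.41 ± 0.40 under anti-CTLA-4. Cxcl13, the B cell attractant, was at 0.28 ± 0.45 and -0.30 ± 0.37, and Cxcl16 at 0.17 ± 0.10 and 0.04 ± 0.09. Cxcl14, an epithelial and stromal chemokine, was at -0.27 ± 0.19 and 0.40 ± 0.18, and Pf4, best known from platelet granules and also made by macrophages, at 0.36 ± 0.29 and 0.21 ± 0.27. None of these 5 was called.

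**Figure D3:**
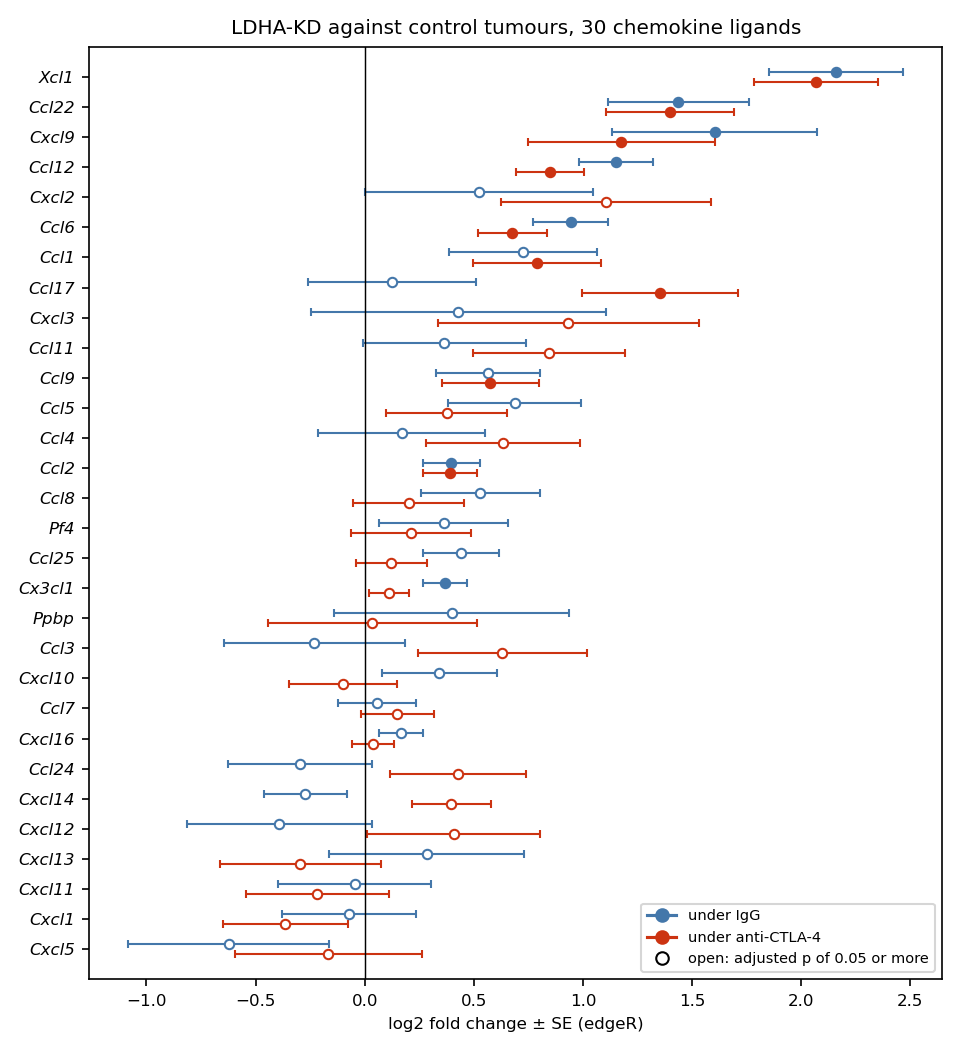
Points are log2 fold changes of LDHA-KD against control tumours with an SE derived from edgeR's F statistic for the 30 tested ligands, under IgG in blue and under anti-CTLA-4 in red, and filled points passed an adjusted p of 0.05. The 7 filled blue and 9 filled red points all lie to the right of 0, and Cxcl3, Ppbp and Cxcl2 carry the widest bars.

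The comparison of anti-CTLA-4 with IgG asks how the treatment goes with ligand expression within each tumour type. No ligand passed the adjusted threshold in control or in LDHA-KD tumours, where 0% of all tested genes did in edgeR's quasi-likelihood test. At an unadjusted p under 0.05 in control tumours, 10 of 30 ligands were higher with anti-CTLA-4 and 1 was lower, against 4.69% and 3.33% of all tested genes. DESeq2 called 0 ligands there, beside 11 of all tested genes higher and 0 lower, and limma voom called 0 ligands. In LDHA-KD tumours 16 of 30 were higher at an unadjusted p under 0.05 and 0 were lower, against 8.18% and 3.67%. DESeq2 called 1 of them, Ccl17, beside 44 of all tested genes higher and 6 lower, and limma voom 0. By direction alone, 27 of 30 ligands were higher with anti-CTLA-4 in control tumours and 25 in LDHA-KD tumours, against 49.1% and 48.8% of all tested genes. The median log2 fold change of the 30 was 0.49 and 0.62, beside 0.00 over all tested genes in both. Counts of samples that did not overlap were low. In control tumours 1 ligand, Pf4, was apart, against 0.555% of all tested genes higher and 0.716% lower, and in LDHA-KD tumours 0 were, against 0.817% higher and 0.567% lower. Both comparisons share their samples with the knockdown comparisons above, so the values stand side by side and are not independent. None of the values that follow for the treatment passed the adjusted threshold.

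Per-sample values are given for Cxcl2, Cxcl3, Ccl3, Ccl8, Pf4 and Cxcl14, which were chosen for the treatment comparisons after their values were seen. Cxcl2, a CXCR2 ligand induced rapidly in macrophages and neutrophils, was at 19.3, 15.8, 16.3 and 9.84 CPM with IgG and at 35.9, 16.3, 49.9, 32.4 and 44.2 CPM with anti-CTLA-4 in control tumours. In LDHA-KD tumours it was at 22.1, 10.1, 27.2, 29.9 and 20.9 CPM with IgG and at 31.02, 18.8, 160.4, 31.9 and 142 CPM with anti-CTLA-4. In both tumour types the lowest anti-CTLA-4 sample lay within the IgG range, and LDHA-KD anti-CTLA-4 replicates 3 and 5 stood far above every other sample. The log2 fold changes were 1.22 ± 0.53 and 1.80 ± 0.49 (edgeR adjusted p = 0.601 and 0.293). With the 4 libraries that stood apart left out they were 0.88 and 0.31.

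Cxcl3, its close paralog, was at 7.33, 5.34, 5.65 and 2.99 CPM with IgG and at 18.5, 7.02, 26.8, 10.6 and 31.8 CPM with anti-CTLA-4 in control tumours. In LDHA-KD tumours it was at 8.02, 2.56, 12.2, 7.50 and 5.72 CPM with IgG and at 9.77, 4.73, 80.4, 16.5 and 69.1 CPM with anti-CTLA-4. The same 2 LDHA-KD libraries were highest, the groups overlapped, and the log2 fold changes were 1.82 ± 0.68 in control and 2.33 ± 0.63 in LDHA-KD tumours, or 1.17 and 0.53 without the 4 libraries. Within LDHA-KD tumours with anti-CTLA-4 the coefficient of variation was 99.04% for Cxcl3 and 89.1% for Cxcl2, against 4.36% for Cx3cl1 in the same 5 samples. Cxcl1 was at 43.1 ± 12.7 and 72.4 ± 30.2 CPM in control tumours and at 41.03 ± 11.7 and 56.3 ± 20.1 CPM in LDHA-KD tumours, with log2 fold changes of 0.75 ± 0.31, or 0.43 without the 4 libraries, and 0.46 ± 0.29. For Cxcl5 they were 0.78 ± 0.46 and 1.24 ± 0.44, the second of which was 0.13 without the 4 libraries. For Ppbp they were 1.10 ± 0.54 and 0.74 ± 0.49.

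The windows before Cxcl1, Cxcl2 and Cxcl3 are shown because these neighbouring genes held the same NF-κB match, in capitals, at 71, 97 and 73 bases before their starts, beside a background of 5.71% of windows with any NF-κB match.
Cxcl1, chr5:90890995-90891194, plus strand: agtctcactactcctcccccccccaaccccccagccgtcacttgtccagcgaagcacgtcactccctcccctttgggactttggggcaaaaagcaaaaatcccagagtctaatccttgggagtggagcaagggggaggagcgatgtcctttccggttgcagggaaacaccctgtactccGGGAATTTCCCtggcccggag
Cxcl2, chr5:90903649-90903848, plus strand: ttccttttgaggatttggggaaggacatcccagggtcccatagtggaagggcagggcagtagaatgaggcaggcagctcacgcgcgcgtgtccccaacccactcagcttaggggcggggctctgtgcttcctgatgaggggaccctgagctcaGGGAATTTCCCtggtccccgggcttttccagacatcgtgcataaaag
Cxcl3, chr5:90785851-90786050, plus strand: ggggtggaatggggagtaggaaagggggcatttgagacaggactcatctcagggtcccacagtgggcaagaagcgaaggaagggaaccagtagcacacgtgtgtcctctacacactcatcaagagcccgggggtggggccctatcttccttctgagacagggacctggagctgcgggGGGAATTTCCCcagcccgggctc
The letters GGGAATTTCCC were found in all 3 windows, and the treatment log2 fold changes of these genes in LDHA-KD tumours ran from 0.46 for Cxcl1 to 2.33 for Cxcl3, a difference that was not tested. The windows of Pf4, Ppbp and Cxcl15 in the same cluster held no NF-κB match. No binding was measured in this series.

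Ccl3 was at 17.01, 18.2, 11.6 and 7.30 CPM with IgG and at 25.6, 8.62, 21.6, 20.9 and 21.2 CPM with anti-CTLA-4 in control tumours. In LDHA-KD tumours it was at 10.8, 8.31, 13.1, 16.3 and 9.31 CPM with IgG and at 16.7, 12.2, 54.8, 16.4 and 51.4 CPM with anti-CTLA-4. In control tumours anti-CTLA-4 replicate 2 lay among the IgG samples and the other 4 above them. LDHA-KD anti-CTLA-4 replicates 3 and 5 were again the highest, and the other 3 of that group lay in or just above the IgG range. The log2 fold changes were 0.53 ± 0.42 in control and 1.39 ± 0.39 in LDHA-KD tumours, or 0.39 in LDHA-KD tumours without the 4 libraries. Ccl4, its neighbour, was at 10.4 ± 2.31 and 22.95 ± 14.2 CPM in LDHA-KD tumours, with a log2 fold change of 1.14 ± 0.36, or 0.29 without the 4 libraries. Ccl5 was at 1.003 ± 0.30 in control and 0.69 ± 0.28 in LDHA-KD tumours, or at 0.59 and 0.26 without the 4 libraries.

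Ccl8 was at 339, 568, 684 and 353 CPM with IgG and at 1076, 674, 1095, 814 and 1230.1 CPM with anti-CTLA-4 in control tumours. In LDHA-KD tumours it was at 639, 441, 1089.7, 611 and 728 CPM with IgG and at 834, 713, 1432, 1415 and 1228 CPM with anti-CTLA-4. In control tumours the anti-CTLA-4 and IgG samples overlapped only through control anti-CTLA-4 replicate 2 and IgG replicate 4. In LDHA-KD tumours they overlapped through IgG replicate 3, which lay above anti-CTLA-4 replicates 1 and 2, and IgG replicate 5, just above anti-CTLA-4 replicate 2. The anti-CTLA-4 sample was the higher one in 95% of sample pairs in control and 88% in LDHA-KD tumours. The log2 fold changes were 1.01 ± 0.27 and 0.68 ± 0.25 (edgeR adjusted p = 0.601 and 0.329). They were 0.81 and 0.49 without the 4 libraries. Ccl1, the other CCR8 ligand, was at 0.73 ± 0.34 and 0.80 ± 0.29, or at 0.66 and 0.59 with these left out.

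Pf4 was at 48.4, 58.1, 51.4 and 40.97 CPM with IgG and at 104, 65.3, 115, 81.5 and 130.2 CPM with anti-CTLA-4 in control tumours. In LDHA-KD tumours it was at 61.2, 47.4, 93.01, 51.9 and 65.9 CPM with IgG and at 63.5, 54.5, 179, 123 and 155 CPM with anti-CTLA-4. All anti-CTLA-4 samples lay above all IgG samples in control tumours, and the groups overlapped in LDHA-KD tumours. The log2 fold changes were 0.997 ± 0.30 and 0.85 ± 0.28 (edgeR adjusted p = 0.601 and 0.312), or 0.75 and 0.33 without the 4 libraries. Of 5 platelet and megakaryocyte markers only 1 was abundant enough to test, their summed level ran from 2.25 to 3.84 CPM in control tumours given IgG and from 2.69 to 3.76 CPM in those given anti-CTLA-4, and Gp9 was at 0 in at least 1 library of every group.

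Ccl17 and Ccl22 were at log2 fold changes of 1.49 ± 0.36 and 0.60 ± 0.29 for the treatment in LDHA-KD tumours and at 0.27 ± 0.38 and 0.64 ± 0.32 in control tumours. The LDHA-KD values without the 4 libraries were 0.76 and 0.21. Cxcl13 was at 0.468 ± 0.162 and 1.40 ± 0.710 CPM in control tumours and at 0.570 ± 0.197 and 1.14 ± 0.589 CPM in LDHA-KD tumours, with log2 fold changes of 1.58 ± 0.43 and 1.004 ± 0.39, which became 1.03 and 0.40 without the 4 libraries. B cell markers summed to under 1 CPM in every sample. Cxcl12 was at 0.42 ± 0.43 and 1.22 ± 0.40, Ccl11 at 0.35 ± 0.37 and 0.83 ± 0.35, and Ccl24 at -0.15 ± 0.33 and 0.58 ± 0.31. The LDHA-KD values of Cxcl12 and Ccl11 were 0.48 and 0.28 once the 4 libraries were left out. The CCR1 ligands Ccl6 and Ccl9 were at 0.46 ± 0.17 and 0.62 ± 0.24 in control and 0.19 ± 0.16 and 0.63 ± 0.22 in LDHA-KD tumours. The same omission gave 0.32 and 0.47 in control tumours and 0.25 for Ccl9 in LDHA-KD tumours. In control tumours the CCR2 ligands were at 0.08 ± 0.13 for Ccl2, 0.10 ± 0.17 for Ccl12 and 0.27 ± 0.18 for Ccl7. In LDHA-KD tumours they were at 0.07 ± 0.12, -0.20 ± 0.16 and 0.36 ± 0.17, and Ccl7 was at 0.09 without the 4 libraries.

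Xcl1, Cx3cl1, Cxcl16, Cxcl9, Cxcl10, Cxcl11 and Ccl25 did not reach an unadjusted p of 0.05 in either tumour type. Xcl1 was at -0.03 ± 0.32 and -0.12 ± 0.25 with anti-CTLA-4 in control and LDHA-KD tumours, Cx3cl1 at 0.19 ± 0.10 and -0.07 ± 0.09, and Cxcl16 at 0.17 ± 0.10 and 0.04 ± 0.09. Cxcl9 was at 0.52 ± 0.46 and 0.10 ± 0.42, Cxcl10 at 0.41 ± 0.26 and -0.04 ± 0.25, Cxcl11 at 0.32 ± 0.35 and 0.15 ± 0.33, and Ccl25 at 0.05 ± 0.17 and -0.27 ± 0.16. Cxcl14 had a negative value in control tumours, where it was at 56.99, 60.8, 57.2 and 83.4 CPM with IgG and at 27.8, 58.9, 38.6, 35.7 and 45.6 CPM with anti-CTLA-4. The highest anti-CTLA-4 sample, replicate 2, lay among the IgG samples and the other 4 lay below all of them, at a log2 fold change of -0.64 ± 0.19 (edgeR adjusted p = 0.601), or -0.66 without the 4 libraries. In LDHA-KD tumours Cxcl14 was at 45.6, 66.8, 43.6, 57.4 and 53.97 CPM with IgG and at 50.5, 37.9, 57.7, 61.3 and 64.7 CPM with anti-CTLA-4, and the groups overlapped fully, at 0.03 ± 0.18.

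**Figure D4:**
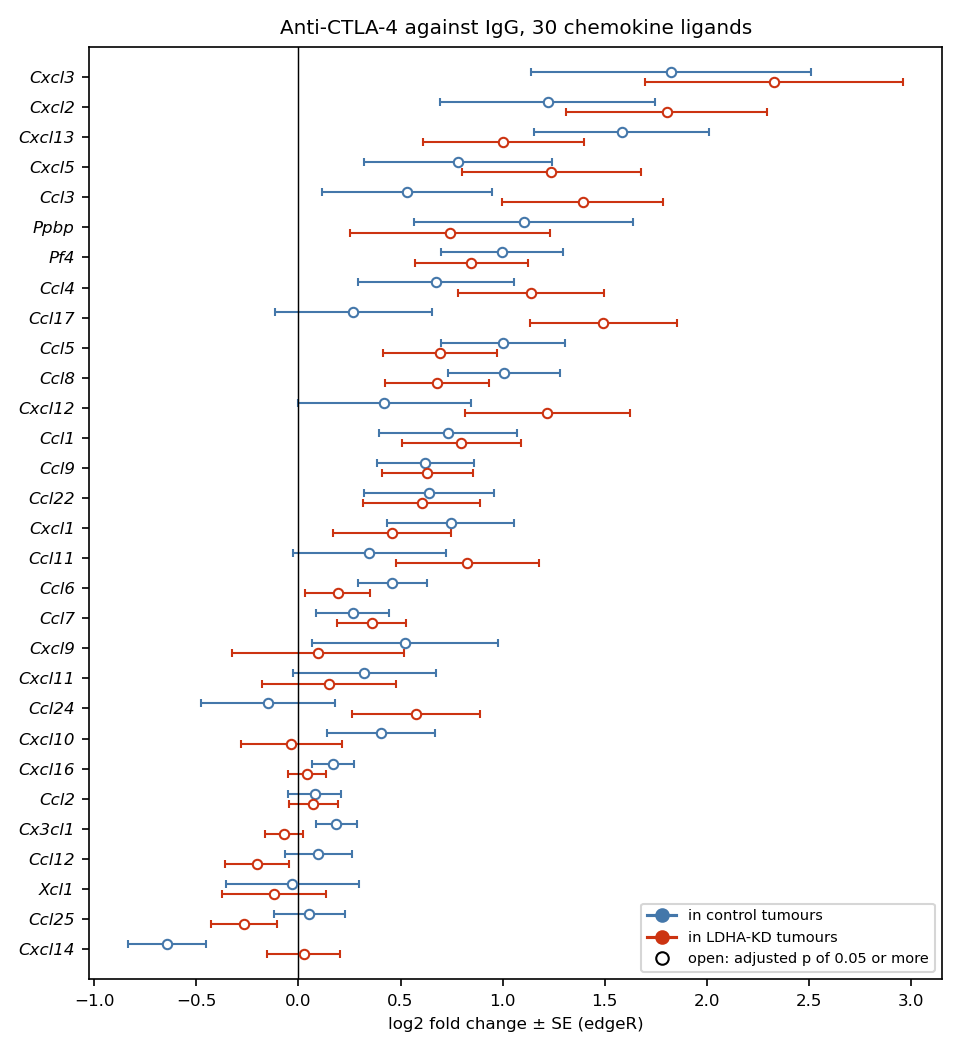
Points are log2 fold changes of anti-CTLA-4 against IgG with an SE derived from edgeR's F statistic for the 30 tested ligands, in control tumours in blue and in LDHA-KD tumours in red, and open points did not pass an adjusted p of 0.05. All points are open, and most lie to the right of 0. In LDHA-KD tumours Cxcl3 and Cxcl2 lie farthest right with wide bars, at values that were 0.53 and 0.31 without the 4 libraries that stood apart. In control tumours Cxcl3 lies farthest right, followed by Cxcl13.

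The interaction subtracts the treatment effect in control tumours from that in LDHA-KD tumours. It gave no call for any ligand in edgeR's quasi-likelihood test, where 0% of all tested genes passed. At an unadjusted p under 0.05, 2 of 30 ligands were positive and 0 negative, against 1.55% and 0.925% of all tested genes. DESeq2 and limma voom called 0. The 2 were Ccl17, at 1.23 ± 0.52, and Cxcl14, at 0.67 ± 0.26 (edgeR adjusted p = 0.9998 for both). With the 4 libraries left out they were 0.77 and 0.56. The median over the 30 ligands was -0.06, beside 0.00 over all tested genes. A difference of the treatment effect between tumour types was therefore not shown for any ligand.

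Neutrophil markers were highest in the libraries with the highest CXCR2 ligands. The summed level of 6 neutrophil markers, of which Cxcr2 is also in the receptor list below, ran from 275 to 438 CPM in control tumours given IgG and from 430.5 to 1199.5 CPM in those given anti-CTLA-4. In LDHA-KD tumours it ran from 248 to 674 and from 449 to 1364 CPM. The highest were LDHA-KD anti-CTLA-4 replicates 3 and 5 at 1364 and 1197 CPM and control anti-CTLA-4 replicate 5 at 1199.5 CPM, and the lowest of each group with anti-CTLA-4 was replicate 2. With anti-CTLA-4, 3 of 6 markers in control and 4 of 6 in LDHA-KD tumours were higher at an unadjusted p under 0.05, none past the adjusted threshold. None of the 6 was at 0 in any library. The part of these cells in the ligand values was not tested.

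**Figure D5:**
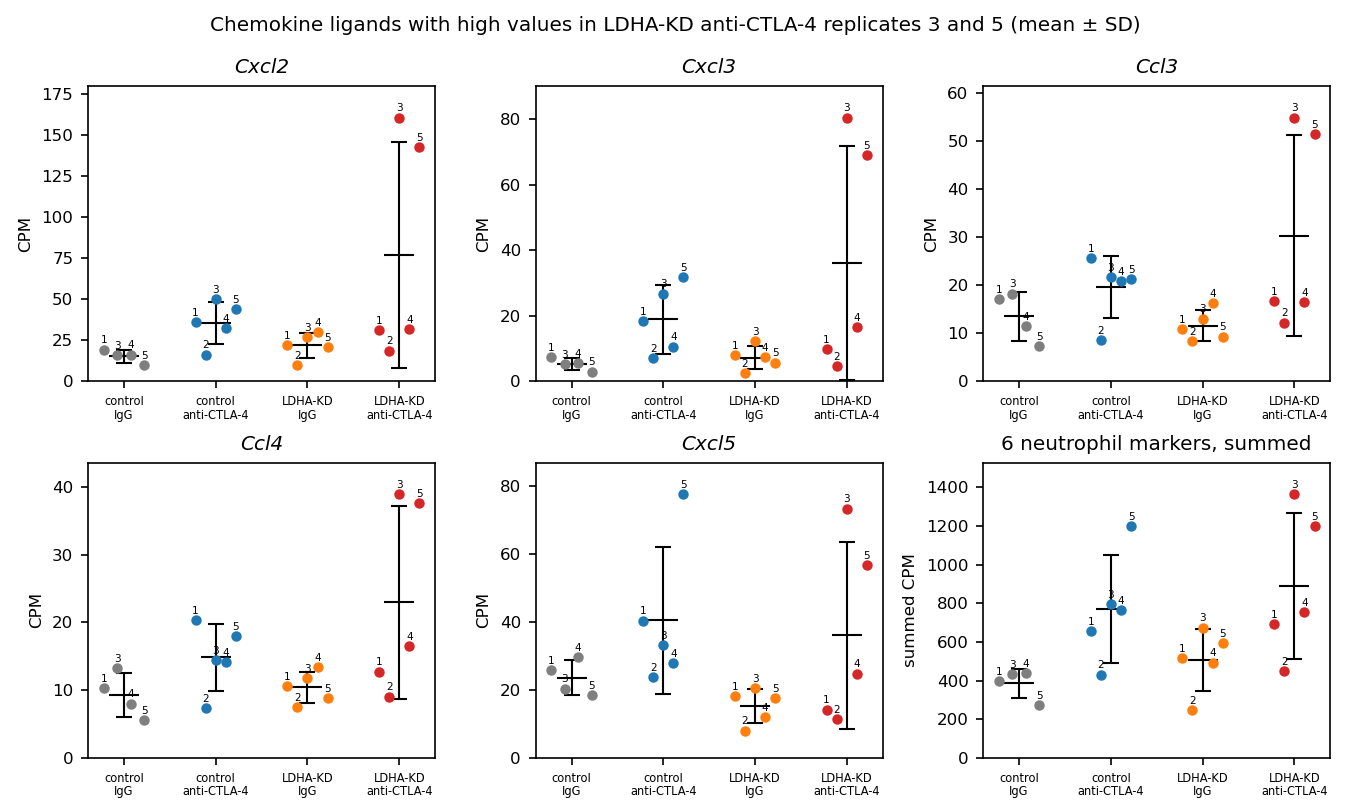
Each point is 1 sample's CPM, labelled with its replicate number, in the 4 groups on the x axis for Cxcl2, Cxcl3, Ccl3, Ccl4 and Cxcl5, with the summed CPM of 6 neutrophil markers in the last panel, and black bars are mean ± SD. LDHA-KD anti-CTLA-4 replicates 3 and 5 are the 2 highest samples for Cxcl2, Cxcl3, Ccl3 and Ccl4, while for Cxcl5 the highest is control anti-CTLA-4 replicate 5 at 77.7 CPM.

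The receptors of these ligands gave calls in both directions. Of 23 chemokine receptors and scavenging receptors, all tested, LDHA-KD tumours had 11 higher and 3 lower under IgG, and 13 higher and 3 lower under anti-CTLA-4, beside the shares of all tested genes given for the ligands. The median log2 fold change was 0.77 and 0.79. The receptor list was chosen with results of these data known. Xcr1, the receptor of Xcl1, was at 0.667 ± 0.275 CPM in control and 2.91 ± 1.03 CPM in LDHA-KD tumours under IgG, a log2 fold change of 2.13 ± 0.34 (edgeR adjusted p = 0.000102). Ccr2, the receptor of Ccl2, Ccl7 and Ccl12, was at 68.7 ± 21.03 and 178 ± 33.3 CPM, at 1.38 ± 0.18 (edgeR adjusted p = 1.18e-05), and at 1.16 ± 0.17 under anti-CTLA-4 (edgeR adjusted p = 2.76e-05). Ccr1, the receptor of Ccl6 and Ccl9, was at 0.73 ± 0.08 and 0.79 ± 0.08 (edgeR adjusted p = 2.66e-06 and 3.83e-07).

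Ccr8, which binds Ccl1 and mouse Ccl8, was scarce at 0.517 ± 0.208 CPM in control and 1.66 ± 0.202 CPM in LDHA-KD tumours under IgG, at 1.68 ± 0.28 (edgeR adjusted p = 0.000121), and at 1.69 ± 0.24 under anti-CTLA-4. Ccr4, the receptor of Ccl17 and Ccl22, named after its values were seen, was at 2.05 ± 0.46 and 1.85 ± 0.39 (edgeR adjusted p = 0.00175 and 0.00109). Cxcr3, the receptor of Cxcl9, was lower in LDHA-KD tumours, at 10.6 ± 1.16 CPM in control and 4.46 ± 0.732 CPM in LDHA-KD tumours under IgG, a log2 fold change of -1.24 ± 0.16 (edgeR adjusted p = 8.58e-06), and -1.04 ± 0.15 under anti-CTLA-4. Ackr3, a scavenging receptor of Cxcl11 and Cxcl12, was lower too, at -1.27 ± 0.15 and -1.23 ± 0.14 (edgeR adjusted p = 2.96e-06 and 2.16e-06). With anti-CTLA-4 against IgG 0 of the 23 passed in either tumour type by edgeR, DESeq2 or limma voom. The counts at an unadjusted p under 0.05 were 4 higher in control tumours, and 8 higher and 1 lower for LDHA-KD. They stand against 4.69% of all tested genes higher in control tumours, and 8.18% higher and 3.67% lower in LDHA-KD tumours.

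A list of 16 interferon-gamma responsive and a list of 12 NF-κB responsive genes, none of them ligands, were read beside the ligands. The activity of either pathway and its part in the ligand values were not tested. Of the interferon list, 4 were higher in LDHA-KD tumours under IgG (Ciita, Ido1, Nlrc5 and Gbp5) and 5 under anti-CTLA-4 (these and Cd274), with 0 lower by edgeR, DESeq2 or limma voom, or at an unadjusted p under 0.05, beside 16.8% and 20.2% of all tested genes higher. Ido1, a tryptophan-degrading enzyme, was at 2.08 ± 0.41 and 1.89 ± 0.36 (edgeR adjusted p = 0.000580 and 0.000440). The list's median was 0.46 and 0.19. Of the NF-κB list, 1 was higher and 2 were lower in each comparison, beside 16.8% and 20.2% of all tested genes higher and 17.5% and 19.8% lower, and the median was -0.20 and -0.11. Ptgs2, the inducible prostaglandin synthase, was the higher one, at 0.87 ± 0.24 and 1.37 ± 0.23 (edgeR adjusted p = 0.00927 and 0.000120). With anti-CTLA-4 against IgG, edgeR called 0 of either list, limma voom 0, and DESeq2 1 NF-κB gene in LDHA-KD tumours. At an unadjusted p under 0.05, 7 of the 12 NF-κB genes were higher in LDHA-KD tumours and 1 in control tumours, and 3 of the 16 interferon genes in each, beside 8.18% of all tested genes in LDHA-KD and 4.69% in control tumours. In LDHA-KD anti-CTLA-4 replicates 3 and 5 the NF-κB list summed to 2008 and 2076 CPM, against 1159.9 to 1372 CPM in the other 3 samples of that group.

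Eosinophil markers were higher in LDHA-KD tumours for 1 of 4 tested under IgG and 4 of 4 under anti-CTLA-4. Their summed levels were at most 12.7 CPM, with Epx, Il5ra and Prg2 at 0 in some control libraries. Over all tested genes 16.8% were higher and 17.5% lower under IgG, and 20.2% and 19.8% under anti-CTLA-4. A single call among 4 to 6 markers is near these shares. Endothelial markers were lower for 4 of 4 under IgG and 2 of 4 under anti-CTLA-4, and epithelial carcinoma markers for 1 of 5 and 3 of 5. Fibroblast markers were higher for 1 and lower for 2 of 6 under IgG and higher for 3 of 6 under anti-CTLA-4. Skin markers were lower for 2 of 3 tested in both, lymphatic endothelial markers for 1 of 4 in both, and adipocyte markers for 0 and 1 of 3. Skeletal muscle markers gave 0 calls of 3 in either, B cell markers 0 and 1 higher of 2 tested, and the platelet marker that could be tested, Itga2b, was higher in both. The part of these cells in the ligand values was not tested. With anti-CTLA-4 against IgG no marker passed in edgeR's quasi-likelihood test, while DESeq2 called 3 T cell markers in control tumours and limma voom 0. Of all tested genes DESeq2 called 11 higher and 0 lower in control tumours. At an unadjusted p under 0.05, 6 of 8 T cell markers in control and 4 of 8 in LDHA-KD tumours were higher. Over all tested genes 4.69% were higher and 3.33% lower in control tumours, and 8.18% and 3.67% in LDHA-KD tumours. By the same measure 3 of 3 adipocyte markers were higher and 1 of 7 macrophage markers lower in control tumours. The adipocyte sums there were 217 and 542 CPM in anti-CTLA-4 replicates 3 and 5, against 76.1 to 110 CPM in the rest of that group. In LDHA-KD tumours 3 of 6 fibroblast, 1 of 4 endothelial and 1 of 4 lymphatic endothelial markers were higher. Lower there were 2 of 6 mast cell, 1 of 7 dendritic cell and 1 of 3 skeletal muscle markers, and 1 of 5 carcinoma markers was higher and 2 lower. LDHA-KD anti-CTLA-4 replicates 3 and 5, the libraries highest for several ligands, had the lowest carcinoma marker sums of all 19 samples, 2042 and 2225 CPM. They also had the highest fibroblast sums of their group, 7304 and 4842 CPM, against 2760 to 4524 CPM in its other 3 samples.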

How the data were processed

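RNA of 19 tumours was sequenced after poly(A) selection with a stranded kit, and the authors deposited raw counts per gene made with HTSeq 0.5.3 on mm10, per the submitters' processing notes, which also name Picard 1.124. The sources used here do not give the aligner, annotation release or strand setting. The 5 summary lines (26.2% to 28.7% of records) were left out. Total gene counts of 31.8 to 43.3 in units of 1000000 set the precision. Floors cover counting error only, since reads here carry no molecular identifiers and can be copies of 1 molecule. Coordinates came from GENCODE M21 (46488 of 46983 genes matched) and sequences from RefSeq.

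Genes were filtered with filterByExpr (minimum count 10) in edgeR 4.0.16 under R 4.3.3, TMM scaled, and fitted over all 19 samples with 1 coefficient per group. edgeR's quasi-likelihood F test gave 5 contrasts, adjusted by Benjamini-Hochberg over 16763 genes at 0.05. The SE of a log2 fold change was derived as its absolute value divided by the square root of the F statistic. CPM uses TMM-scaled totals. Alternatives were DESeq2 1.42.0, limma 3.58.1 (voom), RLE scaling, library totals alone, no filter, only the groups compared, a replicate block, and leaving out 1 library or the 4 that stood apart. Samples were checked for duplicates within groups, and none was found.

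The members and lists were chosen with earlier results of these data known. Every member is named. Those called between 2 groups, with a group mean of at least 1 CPM, got values per sample, as did 6 chosen for the treatment after their values were seen, the rest means or ranges, and up to 6 receptors per comparison were named by adjusted p, of which 1 is not reported here. Other named genes were chosen after their values were seen.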

Additional observations from a re-analysis of the deposited data

Results flagged for a closer look

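Among 120 groups of 4 or 5 samples, 3 held a sample far from the rest by Dixon's test at 95%, where chance alone would flag about 6. Ccl3 in control anti-CTLA-4 replicate 2 was at 8.62 CPM, while the other 4 samples ran from 20.9 to 25.6 CPM. Cxcl1 in LDHA-KD IgG replicate 2 was at 20.2 CPM, while the others ran from 44.4 to 47.7 CPM. Cxcl14 in control IgG replicate 5 was at 83.4 CPM, while the others ran from 57.0 to 60.8 CPM.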

How the results depend on the processing

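The count of ligands higher in LDHA-KD tumours under IgG, 7, became 12 with a replicate block (adding Ccl8, Ccl9, Ccl1, Ccl25 and Ccl5), and that under anti-CTLA-4, 9, became 11 (adding Ccl11 and Cxcl14). Over all 16763 tested genes, the block took those higher from 2814 to 2943 under IgG and from 3390 to 3570 under anti-CTLA-4. The replicate numbers were not taken as pairs, since no label says what they mark. Of 27 same-numbered pairs of samples, 15 correlated above 0.1 (range -0.21 to 0.39), and 5 of 19 libraries correlated best with their own number. The median correlation was 0.12 for same-numbered pairs and -0.04 for pairs with different numbers. Whether the numbers mark a shared factor was not tested. For anti-CTLA-4 against IgG in LDHA-KD tumours DESeq2 called 1 ligand, Ccl17, where edgeR called 0. Of all 16763 tested genes DESeq2 called 44 higher and 6 lower there. Leaving out 1 library at a time gave 6 to 8 ligands higher under IgG and 6 to 12 under anti-CTLA-4, and 0 to 0 for ligands lower in either and for every count of the treatment and interaction contrasts. Shares of all tested genes were not computed for the fits with 1 library left out. Without anti-CTLA-4 replicates 3 and 5 of both tumour types the counts were 10 and 7, beside 2989 and 2131 of all 16739 tested genes higher. The log2 fold change of Cxcl2 between LDHA-KD and control tumours under anti-CTLA-4 then turned from 1.11 to -0.0469, and the cause was not tested. For the 52 ligand values with an unadjusted p under 0.05 in their comparison, 390 values under other settings kept direction and side of the threshold, 18 newly passed, 5 no longer did and 1, that of Cxcl2, turned. With 1 library left out, these were 945, 19 and 24, and 0 turned. Values above that p, such as that of Ccl8 under IgG, are outside these counts.

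Scaling by library totals alone moved the median of all tested genes by 0.07 under IgG and 0.10 under anti-CTLA-4. It turned the genes higher and lower from 2814 and 2938 into 3451 and 2251 under IgG, and from 3390 and 3321 into 4445 and 2369 under anti-CTLA-4. The signs of Cxcl1 and Cxcl11 under IgG and of the Ccl2 interaction flipped with it, all within 0.08 of 0. A fit of only the groups compared has no separate value for the interaction. Ligands near or under 1 CPM, such as Ccl1, rest on few counts, and depth limits their precision.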
